A study of Homo sapiens with 24 samples.

Results

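The regions described here carried a peak of N6-methyladenosine (m6A) in METTL3 knockout cells without UV and in wild type cells with and without UV, and carried none in METTL3 knockout cells after UV. They were found by pooling the 4 deposited peak lists, 1 per condition, and merging peaks that shared at least 1 base on the same RefSeq transcript. Of 20811 merged regions, 2572 (12.4%) had this pattern, on 1857 of 9674 transcripts. All samples were polyadenylated RNA of the osteosarcoma line U2OS grown with 10 µM BrdU, from METTL3 knockout (KO) or wild type (WT) cells. The groups were KO plus UV, KO minus UV, WT plus UV and WT minus UV, where plus UV means UVC at a dose of 50 J, with RNA collected 2 min later per the labels. The lists rested on 2, 3, 4 and 3 immunoprecipitated (IP) libraries in that order, each with an input. The labels do not say whether the knockout is 1 clone or several. Since the members were chosen by the presence and absence of peaks, those 2 properties are given as descriptions without a test.

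The m6A mark is a methyl group on adenosines inside messenger RNA. METTL3 is the catalytic subunit of the nuclear methyltransferase that places most of it, together with METTL14 and adaptors such as VIRMA, ZC3H13 and the RBM15 proteins. Reader proteins of the YTH family bind the mark and influence splicing, decay and translation, and the demethylases FTO and ALKBH5 remove it. In mRNA the mark is known to be dense near stop codons and in long internal exons, and antibodies against it also bind a related methylated adenosine next to the cap. A peak list holds neither a level nor a read count, so fewer transcripts and less mark per transcript cannot be told apart, the depth behind a peak is unknown, and a missing peak does not show that the mark was absent.

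The KO plus UV list held 9471 peaks, against 13852 in KO minus UV, 15465 in WT plus UV and 13989 in WT minus UV. Of the 7912 regions with a peak in KO minus UV, WT plus UV and WT minus UV, the 2572 members made up 32.5% (95% Wilson interval 31.5 to 33.5). The corresponding share missing only from KO minus UV was 11.5% (693 of 6033), that missing only from WT plus UV 5.13% (289 of 5629) and that missing only from WT minus UV 12.8% (787 of 6127). The list with fewest IP libraries thus had the largest share missing, and the list with most had the smallest. The part of library number in these shares was not tested. Intervals throughout cover counting error alone, and with 1 list per condition the spread between replicates is unknown. As a check of the cell type, 3 of 9 osteoblast lineage genes had a region in any list, as did 0 of 5 blood markers, 2 of 5 epithelial markers and 1 of 5 neuronal markers, and none of these genes had a member.

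NIPBL, the loader of cohesin onto chromosomes (chromosome 5, 36876769 to 37066413, GRCh38), had the most members. Its transcript carried 0 peaks in KO plus UV, 12 in KO minus UV, 9 in WT plus UV and 13 in WT minus UV, and 8 of its 9 regions were members. These 8 regions covered 2602 bases, of which 2061 lay under peaks in KO minus UV, 2061 in WT plus UV and 2416 in WT minus UV. They ran from near the start of the transcript, at bases 80 to 360, to bases 9155 to 9483. Peak edges could be nearly the same in the lists that held a region: that at 2002 to 2164 ended at base 2164 in KO minus UV, at 2163 in WT plus UV and at 2163 in WT minus UV.

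VIRMA, the largest subunit of the m6A methyltransferase complex, had 4 regions and all 4 were members. It carried 0 peaks in KO plus UV, 5 in KO minus UV, 4 in WT plus UV and 4 in WT minus UV. Its region at bases 2267 to 2434 was 167 bases wide in KO minus UV, 168 in WT plus UV and 167 in WT minus UV. The widest region of the transcript, at 1291 to 1860, held 416 bases under peaks in KO minus UV, 234 in WT plus UV and 481 in WT minus UV.

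Of the other genes with most members, ANKRD17, an ankyrin repeat protein (chromosome 4, 73073376 to 73258798), had 6. ANKRD17, PRRC2B and DYNC1H1, the dynein heavy chain, kept a KO plus UV peak, 1 each. That of ANKRD17, at bases 6464 to 6730, lay 183 bases from the nearest member, and it overlapped peaks at 6465 to 6740 in KO minus UV, 6465 to 6710 in WT plus UV and 6463 to 6730 in WT minus UV. PRRC2B and DYNC1H1 had 5 members. PKD1, which encodes polycystin-1 and has near-identical pseudogenes, had 5 members, as had the helicase HELZ2. CAMSAP2, which binds microtubule minus ends, ZNF704, KIAA0232, the deubiquitinase USP24, BTBD7 and the chromatin remodeller CHD6 also had 5. NIPBL, PKD1, HELZ2, CAMSAP2, ZNF704, KIAA0232, USP24, BTBD7 and CHD6 carried 0 peaks in KO plus UV and 5 to 12 in KO minus UV.

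**Figure D1:**
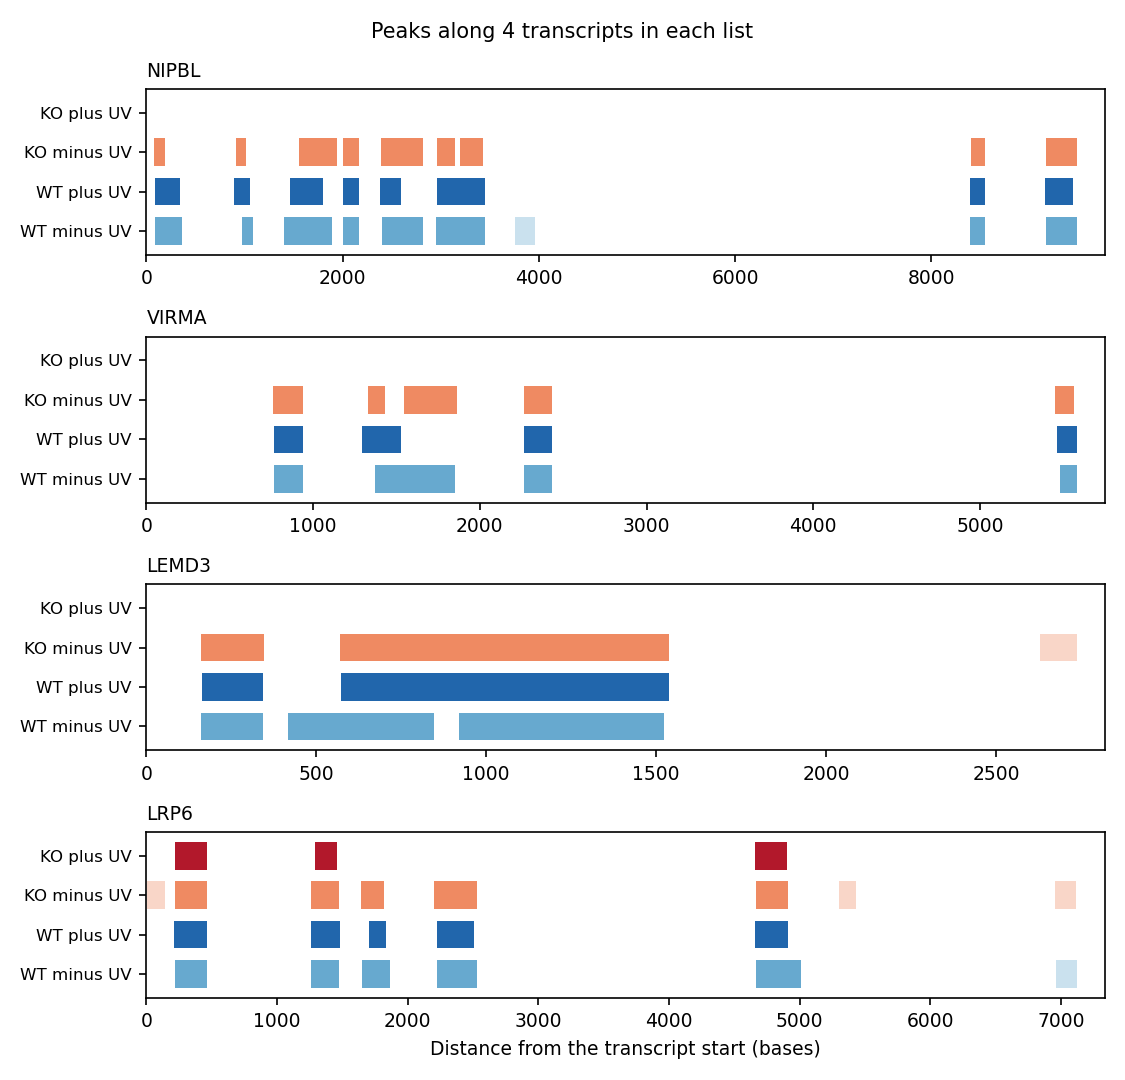
Peaks along the transcripts of NIPBL, VIRMA, LEMD3 and LRP6, with distance from the transcript start in bases on the horizontal axis and 1 row per list; full colour marks regions present in KO minus UV and in both WT lists, and pale bars mark other patterns. The KO plus UV row is empty for NIPBL, VIRMA and LEMD3, and holds 3 peaks for LRP6, whose 2 members lie between shared regions.

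Most members lay on transcripts that had no KO plus UV peak anywhere. This was so for 1764 members (68.6%, 95% Wilson interval 66.8 to 70.3), on 1216 transcripts. The other 808 members lay on 641 transcripts with a KO plus UV peak elsewhere, and 658 of the 808 shared their transcript with a region found in every list. Among the 5081 transcripts with a region in the other 3 lists, 23.9% had no KO plus UV peak. LRP6, a co-receptor of WNT signalling, is an example of the second kind. It held 3 regions found in every list and 2 members, at bases 1646 to 1860 and 2198 to 2529. The second measured 332 bases in KO minus UV, 285 in WT plus UV and 305 in WT minus UV. The KO plus UV peaks of LRP6 lay on either side of these members, at 220 to 460, 1291 to 1460 and 4661 to 4905, the last beside a KO minus UV peak at 4662 to 4906.

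Regions of a transcript tended to be missing together. On the 1953 transcripts with at least 2 regions present in KO minus UV, WT plus UV and WT minus UV, all such regions were missing from KO plus UV in 399 cases (20.4%), none in 1031 (52.8%) and some in 523 (26.8%). Beside a region that was missing, 67.1% of the other regions of the transcript were missing too, against 19.3% beside a region that was found. The same pair of values was 23.5% and 6.53% for the regions missing only from KO minus UV, 11.985% and 5.31% for WT plus UV, and 30.3% and 8.07% for WT minus UV. The pairs start from unlike levels. Of all regions on such transcripts, 34.2% were missing for KO plus UV, 8.64% for KO minus UV, 5.20% for WT plus UV and 10.9% for WT minus UV. Members of 1 transcript are not independent observations. With uncharacterised loci and copy-numbered transcripts left out, 453 genes had only members. Of these, 347 had a single region, which cannot show regions missing together. A further 81 had 2 members, 19 had 3 and 6 had 4. The 6 were CDHR1, a photoreceptor cadherin, LNPEP, a membrane aminopeptidase, NFIB, a transcription factor, CNST, VIRMA and RNF169, a ubiquitin-binding protein of double-strand break repair. In RNF169 the region at 7546 to 7717 ended at base 7716 in KO minus UV, 7716 in WT plus UV and 7717 in WT minus UV. EPG5, an autophagy tether, and the kinase SNRK came next with 3 members each.

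The distance to the nearest KO plus UV peak shows how far members lay from the limit of the rule. For the 808 members with such a peak on the transcript, the median gap was 846 bases, with quartiles of 301 and 1786. Among these 808, 27 had a gap under 50 bases and 64 under 100, which is 1.05% and 2.49% of all 2572 members. Just inside the rule were KMT2B, a histone methyltransferase whose region at 1056 to 1360 adjoined a KO plus UV peak at 697 to 1055, and TMEM131, whose region at 4325 to 4565 adjoined one at 4066 to 4324. In NOTCH2, a developmental receptor, the gap was 1 base. Just outside were CAPN15, PID1 and TERF2, a telomere-binding protein, where the KO plus UV peak shared 3 bases with a peak of another list. Such narrow sharing was rare: of the 5340 regions in every list, 65 (1.22%) shared under 50 bases with KO plus UV, and the median overlap was 186 bases.

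The genes that hold the members were longer than those that hold regions found in every list. The median genomic span, taken from the RefSeq gene table, was 61593 bases for the 2547 members with a matched gene and 37926 bases for the 5297 matched regions in every list. Genes of at least 100000 bases held 33.2% of the members and 19.95% of the regions in every list, a difference of 13.3 percentage points (95% Newcombe interval 11.2 to 15.4). With 1 region a transcript the difference was 11.9 points (9.36 to 14.4). It was 6.90 points (3.51 to 10.6) on transcripts with 2 regions, 12.4 (8.10 to 16.8) with 3 and 6.86 (1.01 to 12.7) with 4. Gene span was not used to choose the members. Of the regions missing only from another list, the share on long genes was 17.6% for KO minus UV, 23.7% for WT plus UV and 19.5% for WT minus UV. Members exceeded these by 15.6 points (12.1 to 18.8), 9.52 points (3.97 to 14.4) and 13.7 points (10.2 to 16.9).

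The share missing from KO plus UV increased over the classes of gene span. It was 24.4% (22.7 to 26.1) for genes under 25000 bases, 29.2% for 25000 to 50000, 34.4% for 50000 to 100000, 43.8% for 100000 to 200000 and 45.7% (41.9 to 49.6) for 200000 bases or more. For KO minus UV the shares lay between 9.57% and 12.8%, for WT plus UV between 4.67% and 6.95%, and for WT minus UV between 10.8% and 14.7%, with overlapping intervals at the ends of the scale in each. Of the members on transcripts with no KO plus UV peak 32.9% lay on long genes, and of those on transcripts with 1 elsewhere 34.0%, a difference of -1.14 points (-5.13 to 2.76). That split uses the KO plus UV peaks of the rule, so its difference is a description. Promoter GC content was compared in the same way. A promoter of at least 60% GC belonged to 75.7% of the members and 77.1% of the regions in every list that had a promoter sequence, a difference of -1.37 points (-3.62 to 0.82). Against regions missing only from WT minus UV the difference was 4.33 points (0.48 to 8.35). In finer classes, the share missing from KO plus UV was 38.2% (33.6 to 43.1) for promoters below 50% GC, 31.5% for 50 to 60%, 30.3% (28.5 to 32.2) for 60 to 70% and 32.8% for 70% or more. For WT minus UV the share also fell from the lowest class, being 16.4%, 15.1%, 12.9% and 10.9% in that order. For KO minus UV it lay between 10.8% and 11.6%, and for WT plus UV between 4.48% and 5.73%.

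**Figure D2:**
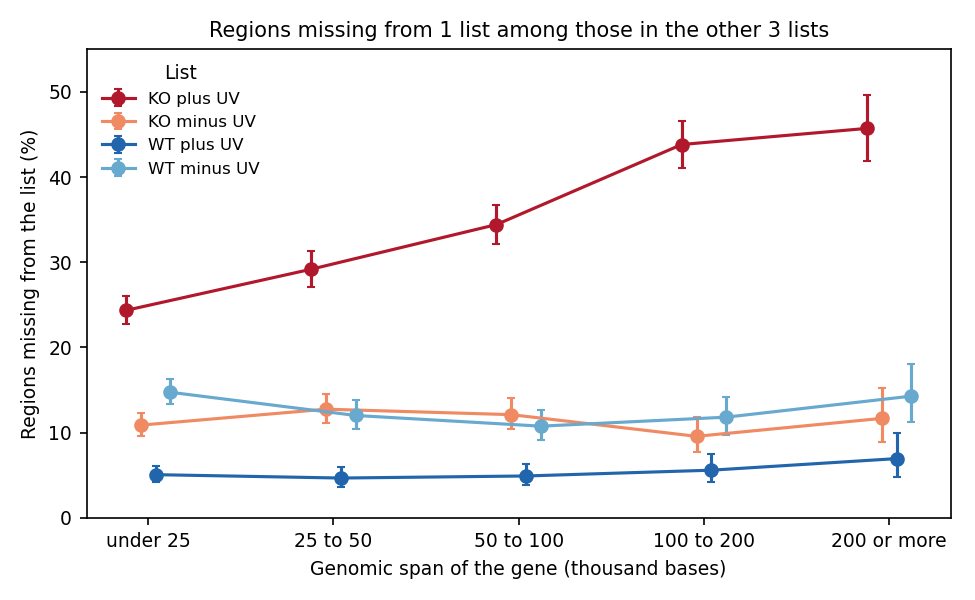
Percent of regions missing from 1 list, among those with a peak in the other 3 lists, by genomic span of the gene in kilobases; each line is 1 list and bars are 95% Wilson intervals. The KO plus UV line climbs to 45.7% in the longest class, against 24.4% in the shortest, while the lines of the other 3 lists stay between 4.67% and 14.7%.

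The lists that held the members mostly gave each as 1 peak. In 2296 of the 2572 (89.3%) each of the 3 lists had a single peak. The median width was 189 bases in KO minus UV (range 100 to 1234), 200 in WT plus UV (100 to 1030) and 196 in WT minus UV (100 to 1266). Regions in every list were a little wider, with medians of 202, 209 and 204 bases in the same lists. The share with at least 200 bases under peaks was 43.5% for members and 52.0% for regions in every list in KO minus UV, a difference of -8.50 points (-10.8 to -6.15). In WT plus UV the difference was -6.85 points (-9.19 to -4.51) and in WT minus UV -5.93 points (-8.27 to -3.58). On transcripts with at least 1 KO plus UV peak the differences were -13.2 points in KO minus UV, -12.2 in WT plus UV and -11.5 in WT minus UV. That subset leaves out members alone, by peaks the rule used, so these values are descriptions. Over all members and all regions in every list, a threshold of 150 bases gave differences of -6.48, -3.46 and -2.07 points in the same order. A wide region also offers more bases for a KO plus UV peak to overlap, which by construction moves wide regions out of the members.

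Set beside regions missing only from another list, members were wider. In WT minus UV, 47.7% of the members had at least 200 bases under peaks, against 36.7% of the regions missing only from KO minus UV and 27.0% of those missing only from WT plus UV. The differences were 11.0 points (6.89 to 15.02) and 20.7 points (14.9 to 25.8). In WT plus UV, members exceeded the regions missing only from WT minus UV by 11.4 points (7.46 to 15.3). Members at the minimum width of 100 bases numbered 124 (4.82%) in KO minus UV, 62 (2.41%) in WT plus UV and 116 (4.51%) in WT minus UV. The share missing from KO plus UV fell with width in KO minus UV, being 42.6% (39.7 to 45.5) for 100 to 149 bases and 22.3% (19.2 to 25.8) for 400 or more. The members with 400 or more bases under KO minus UV peaks numbered 133. Members on transcripts with no KO plus UV peak were wider than those on transcripts with 1 elsewhere: in WT minus UV 50.2% and 42.1% had at least 200 bases, a difference of 8.15 points (3.997 to 12.2). That split uses the KO plus UV peaks of the rule, so its difference is a description.

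**Figure D3:**
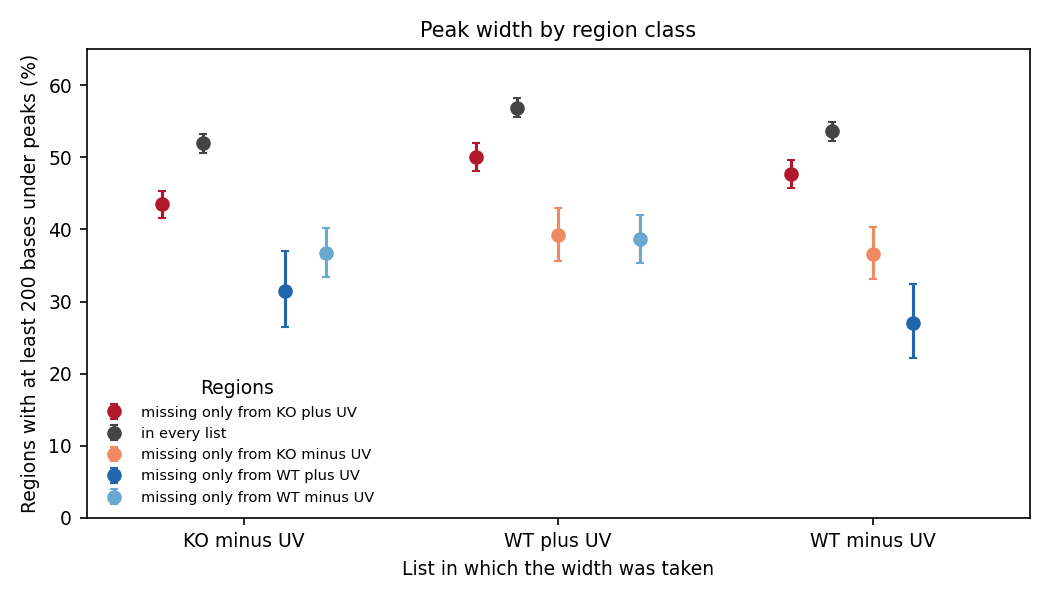
Percent of regions with at least 200 bases under peaks, by the list in which width was taken and by region class, with 95% Wilson intervals. In each list the members (43.5% in KO minus UV, 50.0% in WT plus UV and 47.7% in WT minus UV) lie below the regions in every list and above the regions missing only from another list.

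Widths within a region were also compared between lists. The median difference, KO minus UV less WT minus UV, was -4 bases over the 2572 members (quartiles -37 and 18) and -1 base over the regions in every list. The KO minus UV peak was the narrower in 54.98% of the members and 51.6% of the regions in every list, a difference of 3.37 points (1.018 to 5.70). Against WT plus UV, the KO minus UV peak was the narrower in 57.8% of the members and 56.3% of the regions in every list, a difference of 1.503 points (-0.83 to 3.82). WT plus UV less WT minus UV had a median of 0 bases in the members (quartiles -20 and 24) and 1 base in the regions in every list. The WT plus UV peak was the narrower of these in 45.8% of the members and 41.3% of the regions in every list, a difference of 4.47 points (2.14 to 6.80).

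Most of the widest members were runs of several peaks. BIRC6, a giant ubiquitin ligase that inhibits apoptosis, held a region of 1381 bases, with 1234 bases under peaks in KO minus UV, 969 in WT plus UV and 1266 in WT minus UV. KMT2E followed with 1196 bases and 879, 928 and 1176 under peaks in the same order. LEMD3, a protein of the inner nuclear membrane that restrains SMAD signalling, had 4 peaks in each of these lists within bases 417 to 1538. In DAGLA, which makes an endocannabinoid, 630 bases lay under peaks in KO minus UV, 1030 in WT plus UV and 1047 in WT minus UV. MAN2A1, a Golgi mannosidase, was the least even of these, with 156 bases in KO minus UV, 879 in WT plus UV and 889 in WT minus UV. CACHD1, POGZ and RAPH1, a regulator of actin protrusions, completed the 8 widest, with regions of 910, 903 and 896 bases. Of these 8 genes only POGZ kept any KO plus UV peak.

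Members were found along the whole transcript. Each transcript was divided into 5 equal parts up to its last peak of any list, which understates its length. In the first of these parts were centred 17.5% of the members and 15.4% of the regions in every list, and in the last 42.9% and 48.0%. The difference for the last was -5.04 points (-7.36 to -2.69). It was -1.28 points (-6.04 to 3.47) on transcripts with 2 regions, -3.89 (-8.78 to 1.10) with 3 and -0.36 (-6.11 to 5.50) with 4, so among transcripts with equal numbers of regions each interval included 0. Among transcripts with at least 1 KO plus UV peak the difference was -13.8 points (-17.3 to -10.2). That subset keeps every region in every list but 808 of the 2572 members. It was formed with peaks the rule used, so its difference is a description. The last of the 5 parts held 46.9% of the members on transcripts with no KO plus UV peak. For those on transcripts with 1 elsewhere the share was 34.2%, a difference of 12.8 points (8.72 to 16.7). A KO plus UV peak elsewhere can itself set the end up to which the transcript was divided. The split also uses the KO plus UV peaks of the rule, so this difference is a description. Coding and untranslated parts of the transcripts were not analysed here. Regions beginning within the first 50 bases made up 10.8% of the members and 10.5% of the regions in every list (difference 0.30 points, -1.12 to 1.79), but 19.3% of the regions missing only from KO minus UV.

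At base 1 of the transcript began 125 members. For 13 of them the gene has a single RefSeq transcript, and 4 are shown here with their first 50 transcribed bases in GRCh38.p14 from RefSeq, with GGAC, the core of the usual m6A motif, in capitals where it occurs. The RefSeq release behind the lists is unknown, so base 1 of a listed transcript may differ from the gene start used for these sequences and for the counts made from them.
MYCBP2: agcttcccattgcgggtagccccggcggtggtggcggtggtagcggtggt
FBXO45: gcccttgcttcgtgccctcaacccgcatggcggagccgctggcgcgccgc
NUP188: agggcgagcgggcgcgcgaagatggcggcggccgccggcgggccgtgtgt
BRK1: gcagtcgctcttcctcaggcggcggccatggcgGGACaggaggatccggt
MYCBP2, a large ubiquitin ligase (chr13:77327045-77327094, minus strand), had a peak to base 160 in KO minus UV, 450 in WT plus UV and 518 in WT minus UV. FBXO45, which forms a ligase with MYCBP2 (chr3:196568660-196568709, plus strand), had its member at bases 1 to 239, and it kept a KO plus UV peak 690 bases further on. NUP188, a nuclear pore protein (chr9:128947699-128947748, plus strand), ended at base 150 in KO minus UV, 160 in WT plus UV and 174 in WT minus UV. BRK1, a subunit of the actin-regulating WAVE complex (chr3:10115675-10115724, plus strand), ended at 154, 150 and 150. GGAC, sought on the transcript strand only, was in the first 50 bases of 3 of the 13 members (23.1%), 8 of 38 such regions in every list (21.1%) and 18.8% of the 27305 genes with a sequence. The first base was A in 5 of the 13 (38.5%), 24 of the 38 (63.2%) and 44.3% of the 27305 genes, so the members lay nearer to the share over all genes than the regions in every list did. These counts are small, and a match of letters shows no methylated site.

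Members were unevenly spread over the chromosomes. The share missing from KO plus UV was 52.5% (42.8 to 62.1) on chromosome 13 and 47.3% (41.2 to 53.4) on chromosome 4, and it was 21.5% (18.1 to 25.3) on chromosome 17 and 23.3% (19.2 to 27.9) on chromosome 7. Of 23 chromosomes compared with all others, 5 lay above (3, 4, 8, 13 and 18) and 5 below (2, 7, 17, 19 and 22), with unadjusted 95% intervals. Gene span went with this only in part. The median span of the regions was 76024 bases on chromosome 13, 83685 on chromosome 4 and 27960 on chromosome 17. Chromosomes 7 and 2, which lay below, had medians of 49489 and 53553 bases. Those of chromosomes 3 and 8, which lay above, were close to these, at 53234.5 and 54433 bases. Among genes below 50000 bases, chromosomes 3 and 4 still lay above the others, by 13.4 points (7.25 to 19.9) and 14.7 points (4.56 to 25.7), and chromosomes 7 and 17 still below, by -6.72 points (-12.1 to -0.17) and -7.27 points (-11.3 to -2.59). Chromosome 13 was 6.16 points above, with an interval from -6.71 to 22.3. Some of these chromosomes also stood out for another list. The share missing only from KO minus UV was 21.3% on chromosome 8, or 10.1 points above the others (4.60 to 16.8), and 20.3% on chromosome 13, or 8.96 points above (0.62 to 20.9). On chromosome 4 it was 11.2% and on chromosome 17 it was 11.3%, with intervals of the difference that included 0. For the regions missing only from WT plus UV, the share was 6.25% (9 of 144) on chromosome 4 and 3.43% (14 of 408) on chromosome 17, again with intervals that included 0.

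**Figure D4:**
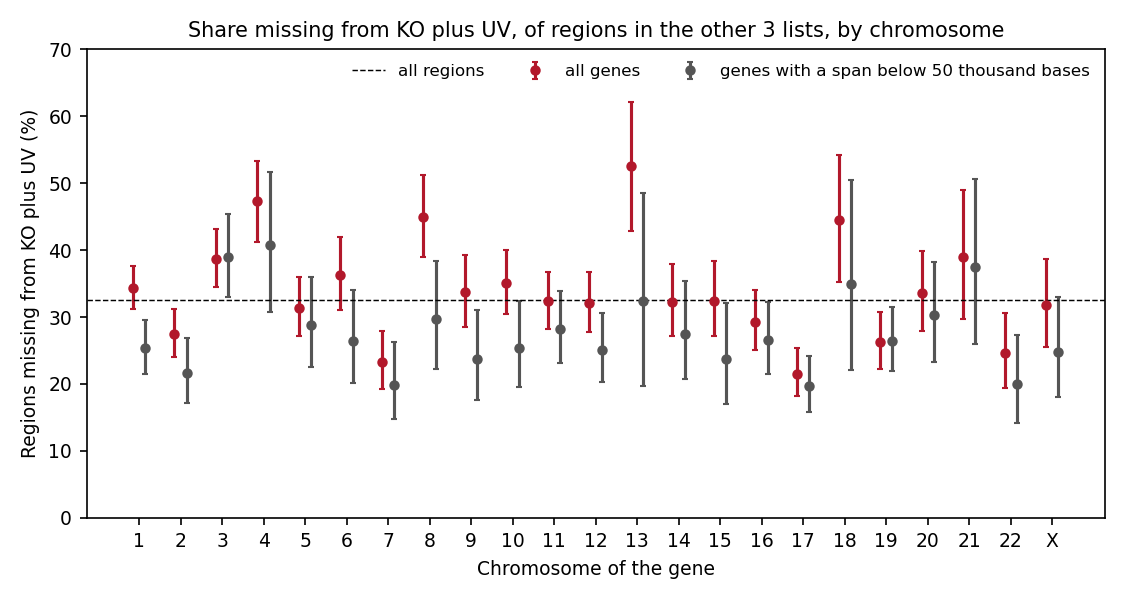
Percent of regions missing from KO plus UV, among those in the other 3 lists, by chromosome, for all genes and for genes with a span below 50000 bases; bars are 95% Wilson intervals and the dashed line is the share over all regions, 32.5%. Chromosomes 4 and 13 are highest for all genes, and 17 and 7 lowest.

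Among gene lists, the immediate early genes, switched on within minutes of a stimulus, had no member: 0 of their 23 regions in the other 3 lists were missing from KO plus UV, which allows a share of up to 14.3% by the Wilson interval, beside 32.5% over all genes. They are short, with a median span of 4084 bases, and 3 of their regions were missing only from KO minus UV and 2 only from WT plus UV. Over all regions, the shares missing only from those lists were 11.5% and 5.13%. Translesion synthesis and tolerance genes had 0 of 8. The lists were chosen with earlier results of these data known, so their counts stand as descriptions.

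Damage response genes had members in numbers on either side of the 32.5% background, and each interval given below included it. Of 20 nucleotide excision repair regions, 8 were members (40%, 21.9 to 61.3). They included 2 each on CUL4B, a scaffold of the ligase that recognises UV lesions, ERCC6, the transcription-coupled repair ATPase, and UVSSA, its partner. ERCC6 carried 0 peaks in KO plus UV, 3 in KO minus UV, 3 in WT plus UV and 2 in WT minus UV. CUL4B carried 0, 2, 4 and 4 in that order and UVSSA 0, 2, 2 and 2. LIG1 and ERCC5 held the other 2 members, and both kept a KO plus UV peak elsewhere on the transcript, for LIG1 80 bases away. Of 21 checkpoint regions 5 (23.8%, 10.6 to 45.1) were members, 1 each on NBN, RNF168, WEE1, ATRIP and TIMELESS. NBN, of the break-sensing MRN complex, had 187 bases under peaks in KO minus UV, 396 in WT plus UV and 196 in WT minus UV. Of 20 regions of p53 targets 5 (25%, 11.2 to 46.9) were members. MDM2, the ligase that degrades p53, held 2, the wider at 3860 to 4314 with 454 bases in KO minus UV, 453 in WT plus UV and 453 in WT minus UV. GADD45A held 2 and RRM2B 1.

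The m6A machinery had 9 members among 22 regions (40.9%, 23.3 to 61.3). Besides the 4 of VIRMA, the reader IGF2BP2 had 2, and ALKBH5, an m6A demethylase, and the readers YTHDF3 and YTHDC2 had 1 each. In ALKBH5 the peak covered 170 bases in KO minus UV, 243 in WT plus UV and 264 in WT minus UV. IGF2BP2 kept a KO plus UV peak, while the other 4 genes had none.

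Chromatin and ubiquitin genes held larger numbers. Acetyltransferases, remodellers and Polycomb genes had 35 members among 69 regions (50.7%, 39.2 to 62.2). The 35 lay on 12 genes, with 8 on NIPBL, 5 on CHD6 and 3 on the acetyltransferase CREBBP. NIPBL, the cohesin loader, was placed in this list but belongs to none of the classes that name it. With 8 members and 0 regions in every list, it raises the share of the list. Histone methyltransferases and demethylases had 23 of 65 (35.4%, 24.9 to 47.5), led by ASH1L with 4. That interval included the 32.5% over all genes. HECT, RING and cullin ligases had 30 of 57 (52.6%), on 18 genes, with 4 on RNF169 and 3 on HERC1, and MDM2 and CUL4B belong to this list as well. The median span of the regions was 144735 bases in the acetyltransferase and remodeller list and 120026 in the ligase list, both above that of all members.

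ZNF genes, a large family of DNA-binding repressors, had 76 members among 156 regions (48.7%, 41.0 to 56.5) with a median span of only 25830 bases. The members lay on 53 ZNF genes, 40 of which had no KO plus UV peak. Of the other ZNF regions, 13 were missing only from KO minus UV, 7 only from WT plus UV and 20 only from WT minus UV. Over all regions, the shares missing only from these lists were 11.5%, 5.13% and 12.8% in that order. The ZNF counts were not compared with those shares. ZNF704 had 5, and ZNF445 and ZNF275 had 4 each. ZNF275 carried 0 peaks in KO plus UV and 5 in each other list. Many ZNF genes share sequence, so reads may be split among them.

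Cyclins and cell cycle kinases had 11 members among 21 regions (52.4%, 32.4 to 71.7). The transcription factor E2F3 and the kinase CDK6 had 2 each and no KO plus UV peak, and CCND1, cyclin D1, had 2 beside a region found in every list. RNA decay and translational control genes had 16 of 34 (47.1%), with 3 on SMG1, a nonsense-mediated decay kinase with near-identical copies in the genome. TGF-beta, WNT and Hippo genes had 22 of 54 (40.7%), with 4 on the tankyrase TNKS and 3 on TAOK1. Mediator and elongation genes had 12 of 47 (25.5%), as had receptor tyrosine kinase, PI3K and mTOR genes, led by CCNT2 with 3 and SOS1 with 2. Heat shock and unfolded protein genes had 4 of 20: 2 on HSPH1 and 1 each on EIF2AK3 and HSPA1A, the last near-identical to a neighbouring gene, and all 3 genes kept a KO plus UV peak. Among 13 long noncoding RNAs only MALAT1 had members, 2 of the list's 4 regions, at bases 1801 to 2018 and 2630 to 2951.

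**Figure D5:**
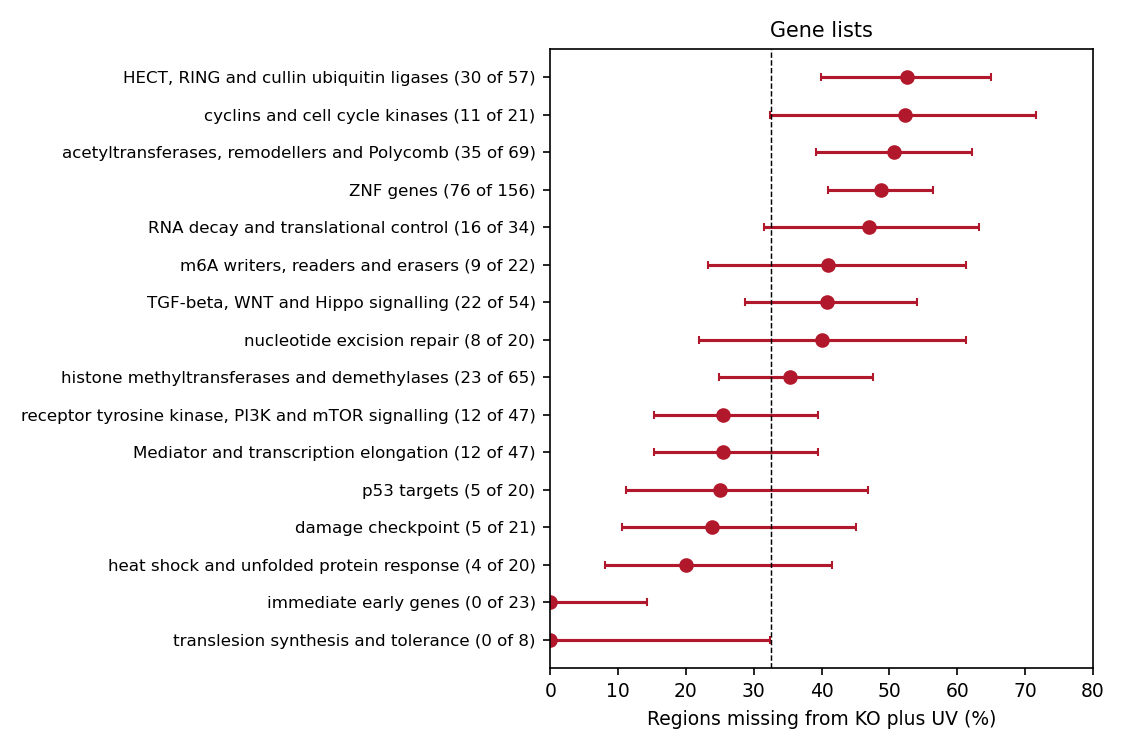
Percent of regions missing from KO plus UV, among those in the other 3 lists, for gene lists with at least 8 such regions; counts stand beside each name, bars are 95% Wilson intervals and the dashed line is the share over all genes, 32.5%. Ubiquitin ligases (52.6%) and cell cycle genes (52.4%) are at the top, and the immediate early and translesion synthesis genes, at 0 of 23 and 0 of 8, at the bottom.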

How the data were processed

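Polyadenylated RNA of 24 samples (12 IP and 12 input libraries) was read as 50-base single-end reads per the labels' protocols. The submitters' processing notes name TopHat2 2.0.14 and hg38. For the peak caller and the transcript release, the sources used here give no name. The deposited values have no unit of signal (other): the authors' deposited lists give the start and end of each peak along a RefSeq transcript, with no score. Positions were taken as counted from 1 with both ends included. Peaks were merged with Python 3.11.15 and pandas 2.3.3, and the merging was tested on simulated data. Gene names and spans came from a RefSeq gene table (GRCh38), and 25 members on 16 transcripts had no name. Wilson intervals were computed for shares, and Newcombe intervals for 39 differences between classes of regions, for each of 23 chromosomes in each list and for the alternatives, all unadjusted for their number. No test between conditions was possible with 1 list each. Named genes were the 12 with most members (ties by bases covered), the 8 with the widest, 8 with only members, 3 on each side of the rule's limit, and up to 3 of each gene list. Further genes (DYNC1H1, MYCBP2, FBXO45, NUP188, BRK1 and the remaining genes of lists with 5 or fewer members) were chosen after their values were seen. The members and the gene lists were chosen with earlier results of these data known. Some genes that met the naming rule are not reported here.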

Additional observations from a re-analysis of the deposited data

Results flagged for a closer look

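The 2572 regions missing only from KO plus UV differed in 4 properties from the 289 missing only from WT plus UV. Those missing only from KO plus UV lay more often on genes of at least 100000 bases, by 9.52 percentage points, and began less often within the first 50 bases of the transcript, with a difference of -4.42 points (95% Newcombe interval -9.15 to -0.52). They more often had at least 200 bases under peaks, by 20.7 points in WT minus UV and by 11.98 points (6.10 to 17.4) in KO minus UV. There were 2 IP libraries for KO plus UV and 4 for WT plus UV, and the part of that number in these differences was not tested.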

How the results depend on the processing

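Of 90 values under alternative settings, 74 stayed within the bounds set for them: the same direction with an interval that excluded 0 for differences, 1.5 times for the count of members, and the 95% interval for shares. The number of members ranged from 2226 to 2697. With peaks of at least 150 bases only, the share missing from KO plus UV was 37.2% and the share of members on transcripts without a KO plus UV peak 74.8%. With peaks linked where they share at least 50 bases these were 33.7% and 65.7%, and with merging within 100 bases the share on transcripts without a KO plus UV peak was 71.0%. The long-gene difference ranged from 4.93 to 15.2 points over 11 alternatives and kept its sign. The interval of the difference in the last of 5 transcript parts included 0 on transcripts with 2, 3 or 4 regions (-1.28, -3.89 and -0.36 points), and on transcripts with a KO plus UV peak the difference was -13.8 points. The width differences kept their sign over 12 alternatives each, between -13.2 and -6.05 points in KO minus UV, -12.2 and -3.46 in WT plus UV, and -11.5 and -2.07 in WT minus UV. The cause was not tested. For chromosome 19, the difference among genes below 50000 bases was 0.146 points, against -6.53 points for all genes, and with 1 region a transcript it was -3.43 points. Chromosomes 2, 8, 13, 18 and 22 kept their direction in genes below 50000 bases, with intervals that included 0, and so did chromosome 22 with 1 region a transcript. Restriction to transcripts with a KO plus UV peak, to genes below 50000 bases and, for chromosomes, to 1 region a transcript, were chosen after seeing the data. The first of these uses peaks of the rule and leaves out members alone. Its differences, the largest for width and for the last transcript part, are therefore descriptions. The comparison of the GGACT motif inside the regions was not run, since sequence beyond the transcript starts was not used here. In the first 50 bases, GGACT was in 0 of 13 members and 1 of 38 regions in every list. No paired analysis was possible because each condition has 1 list for all of its replicates, and for the same reason no replicate could be left out. The lists hold no depth, so it cannot be said what was detectable in KO plus UV.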

Other observations

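Some transcripts with a member also carried a region found in KO plus UV alone. Such a region lay on 61 of the 1857 member transcripts (3.28%) and on 313 of the 3747 transcripts with a region in every list (8.35%). Member transcripts were chosen for a missing KO plus UV peak, and 1216 of them had none at all, so these shares are descriptions. The widest such regions were 320 bases on EXT1, a heparan sulfate polymerase, at bases 1181 to 1500, and 248 bases on KMT2B, at bases 5625 to 5872. Others lay on TMEM41A (207 bases), ARID1A, a subunit of a chromatin remodelling complex (194 bases), EDEM1, a factor of endoplasmic reticulum protein disposal (190 bases), and the splicing cofactor SON (188 bases).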
